A study of Mus musculus with 8 samples.

Results

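The genes described here encode the extracellular matrix of fat tissue, namely the collagens, the laminins and nidogens, the thrombospondins, fibulins and fibrillins, the lysyl oxidases, and single genes such as fibronectin (Fn1), fibromodulin (Fmod), periostin (Postn) and elastin (Eln). They were chosen by gene symbol in the platform annotation. The choice gave 80 probe sets (chip A holds 44 and chip B 36), which stand for 60 of the 6137 named genes on both chips. Their transcript levels were measured with Affymetrix arrays in epididymal fat, a visceral fat depot of male mice that is attached to the epididymis. There were 4 groups, the lines DU6, DU6i, DUKs and DBA. Each was 1 RNA pool of 20 males aged 42 days, hybridised to 1 chip A and 1 chip B array. DU6 is an outbred line bred for high body weight, and DU6i was inbred from it. DUKs is the unselected control line of the same breeding programme, and DBA is an inbred laboratory strain. These descriptions are general knowledge and not taken from the labels. The series title sets DU6 and DU6i beside DUKs and DBA, so DU6 was compared with DUKs and DU6i with DBA, and the other 4 pairs of lines were computed as well.

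White fat holds a pericellular and an interstitial matrix. Each adipocyte sits in its own basement membrane, a thin sheet in which collagen IV and laminin networks are joined by nidogen and perlecan. Between the cells lies an interstitial matrix of fibrillar collagens I, III and V, collagen VI, small leucine-rich proteoglycans, elastic fibres and adhesive glycoproteins, made mostly by fibroblasts and fat-cell precursors. Matrix genes are known to be regulated as fat pads grow, since adipocytes that enlarge have to remodel the sheet around them.

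Each line had 1 pool, so no pair of lines has a replicate or a p-value, and a pool hides the differences between animals. Intensities are linear, scaled by the authors to one level per array, and have no unit. The floor of a chip was taken as the 95th percentile of the absolute values of its intensities below 0, and was 1022.8 on chip A and 2258.25 on chip B. A gene counted as measured when its mean over the 4 arrays was above the floor, and a ratio against an intensity at or under the floor was computed against the floor and is given as "at least". The floor was exceeded by 3045 to 3334 probe sets per chip A array and by 1639 to 1823 per chip B array. The number of arrays limits the precision. Levels were compared between lines for 1 probe set and never between probe sets. Sums of marker genes add the same probe sets in every line. In whole tissue, fewer cells of a type and less RNA per cell cannot be told apart. The arrays also differed in ways that touch the results. The 99th percentile of intensity on chip A was 18810 in DU6, 34793 in DU6i, 27552 in DUKs and 23450 in DBA, and on chip B it was 49489, 34692, 52203 and 33622. The middle probe set of pyruvate carboxylase, a control transcript, had between 12.7% and 19.5% of the 3' signal on the arrays of DU6 and DBA and between 45.3% and 55.6% on those of DU6i and DUKs.

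Of the 60 matrix genes, 39 were measured, 21 of them on chip A and 18 on chip B. Of these, 29 were above the floor on all 4 arrays and 10 on fewer. Another 6 genes were above the floor on at least 1 array without reaching it in the mean. Tnc, which encodes the glycoprotein tenascin-C, had 2302 in DU6, 1865 in DU6i, 1286 in DUKs and 1157 in DBA. Col8a1 was above the floor in DU6 only (2392). Col4a4 (2389 and 2398) and Col26a1 (1134 and 1168) were above it in DU6i and DUKs, the laminin gene Lama3 in DU6i and DBA (2359 and 2298) and Thbs1, the gene of thrombospondin 1, in DUKs (1490). The remaining 15 genes were above the floor on none of the arrays: Col2a1, Col4a3, Col4a5, Col9a1, Col9a3, Col10a1, Col11a1, Col12a1, Col17a1, Col19a1, Col22a1, Fbln7, Fbn2, Lama1 and Lama5. Cartilage collagens (Col2a1, Col9a1, Col10a1, Col11a1) and the skin collagen Col17a1 are among them.

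Many matrix genes stood higher in both the DU6 and the DU6i pool. Of the 39 measured genes, 17 (43.6%) had both DU6 and DU6i above both DUKs and DBA, where 18.4% of the 3227 measured genes of the arrays had that order. The opposite order was found in 0 of the 39, against 13.3% of all measured genes. The 17 were Fn1, Postn, Thbs2 and Tnxb among the adhesive proteins, Col15a1, Lama2, Lamb1, Lamc1, Nid1 and Nid2 of the basement membrane, Col5a1 and Col5a2 of the fibrils, Bgn, Lum and Vcan among the proteoglycans, and the crosslinking enzymes Lox and Loxl1. The size of the smallest difference between a DU6-derived line and either other line ranged from 0.02 for Bgn to 1.08 for Nid2 on the log2 scale. In 8 of the 39 (20.5%), against 3.41% of all measured genes, it exceeded 0.44, which is the SD of a single log2 ratio estimated from genes with 2 probe sets in DU6 vs DUKs. These 8 were Nid2 (1.08), Thbs2 (0.99), Tnxb (0.73), Lox (0.72), Col5a1 (0.55), Lum (0.51), Col5a2 (0.50) and Col15a1 (0.47), where the value for Thbs2 is a bound, since DUKs and DBA were both under the floor. Thbs2 was measured only through the DU6 lines, so its direction followed from the filter.

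The difference between the sides was also fitted with limma, with 2 lines a side, over the 5053 measured probe sets. At an adjusted p of 0.05 limma called 0 of the 52 measured matrix probe sets and 0% of all, with a smallest adjusted p of 0.991 among the matrix probe sets and 0.728 over all. At an unadjusted p under 0.05 there were 7 matrix probe sets (13.5%) and 4.65% of all. They belonged to Nid2, Thbs2, Tnxb (both of its probe sets), Lox, Col5a1 and Col15a1. The p of Thbs2 is not a measure of spread, because its values in DUKs and DBA were both set to the floor. The fitted difference, DU6 and DU6i minus DUKs and DBA, was above 0 in 41 of the 52 matrix probe sets (78.8%) and in 49.3% of all. For Nid2 it was 1.45 ± 0.38 (SE) on the log2 scale and for Tnxb 0.94 ± 0.35. The Nid2 difference is a bound and its SE is not a pure spread between lines, since its DUKs value was set to the floor. The fit measures the spread between lines, DU6i descends from DU6, and with 2 lines a side the smallest two-sided p of an exact permutation test is 1 in 3.

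**Figure D1:**
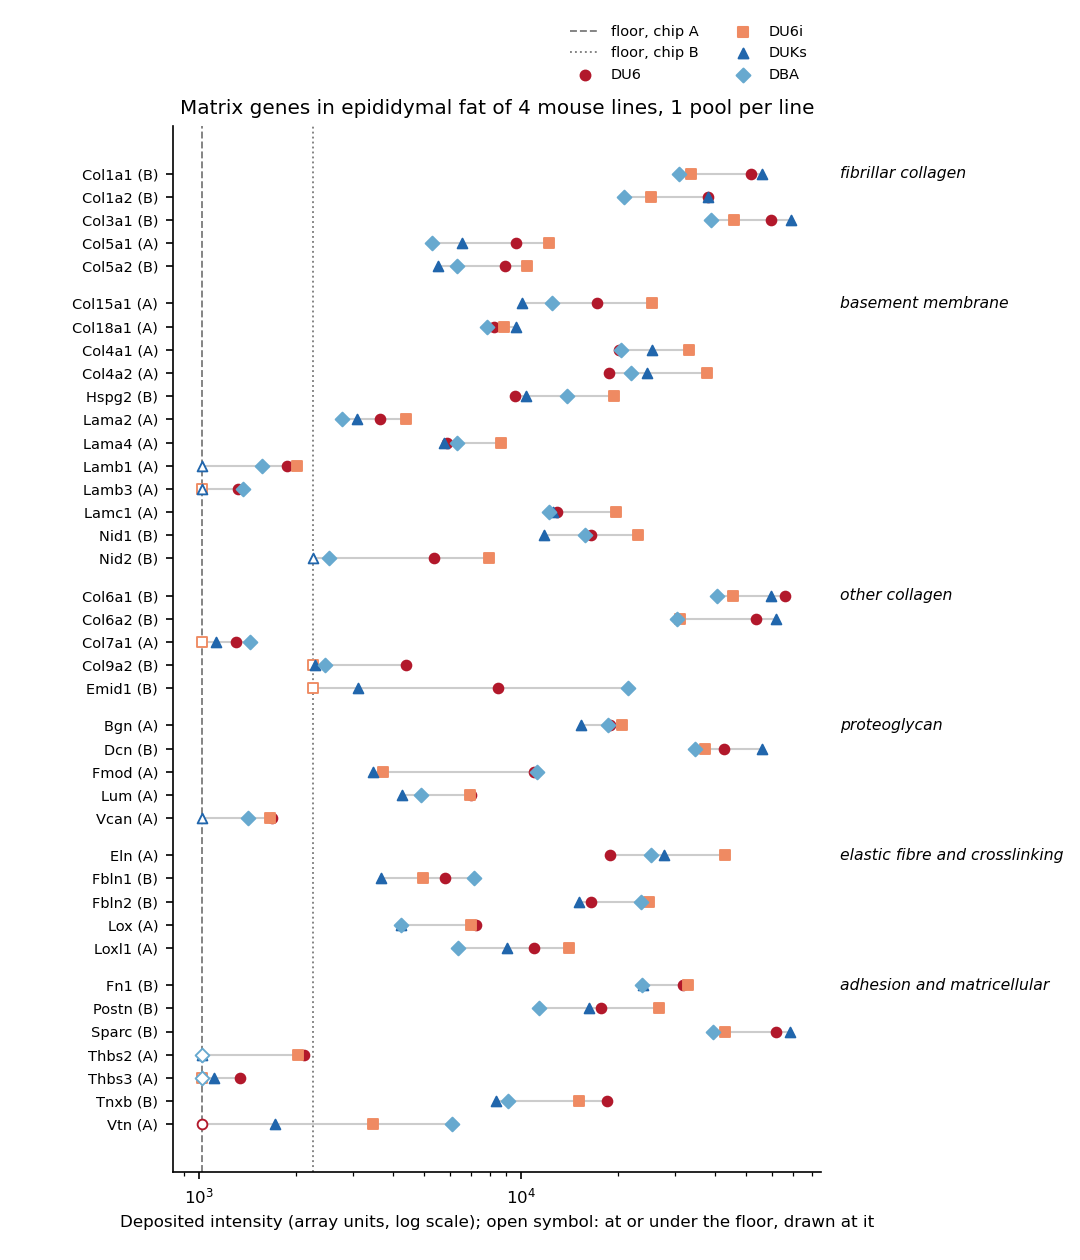
Deposited intensity (array units, log axis) of each measured matrix gene in the 4 lines, 1 symbol per pool with no replicate; A or B after a name is the chip, vertical lines are the floors, and open symbols are intensities at or under the floor, drawn at it. Genes are grouped by role; DU6i is the highest line for 18 of the 39 genes, and DUKs and DBA are each the lowest for 15.

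Promoter sequences are shown for a pair of these genes, Thbs2 and Postn, and for a pair whose order of lines was different, Fmod and Emid1. Each is the 250 bases before the transcription start in RefSeq (GRCm38.p6), 5' to 3' on the gene's strand, in lower case. Capitals mark matches on either strand to 4 short promoter motifs. One is TATAAA, which places the start of transcription in many genes with sharply regulated expression. Another is CCAAT, which binds a widespread activator of transcription. The others are GGGCGG, to which factors of the Sp family can bind and which is frequent in promoters rich in CpG, and TGACTCA, to which members of the AP-1 family can bind. The windows lie at chr17:14694263-14694512 on the minus strand for Thbs2, chr3:54360857-54361106 on the plus strand for Postn, chr1:134037004-134037253 on the plus strand for Fmod and chr11:5152231-5152480 on the minus strand for Emid1.
Thbs2: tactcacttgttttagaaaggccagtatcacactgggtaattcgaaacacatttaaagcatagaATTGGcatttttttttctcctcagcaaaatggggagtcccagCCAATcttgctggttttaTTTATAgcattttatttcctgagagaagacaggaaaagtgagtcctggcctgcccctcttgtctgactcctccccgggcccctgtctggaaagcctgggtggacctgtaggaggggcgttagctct
Postn: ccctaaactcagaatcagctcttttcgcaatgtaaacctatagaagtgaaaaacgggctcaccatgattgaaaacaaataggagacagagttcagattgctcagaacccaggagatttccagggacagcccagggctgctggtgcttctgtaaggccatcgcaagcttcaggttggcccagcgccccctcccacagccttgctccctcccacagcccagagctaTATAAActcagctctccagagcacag
Fmod: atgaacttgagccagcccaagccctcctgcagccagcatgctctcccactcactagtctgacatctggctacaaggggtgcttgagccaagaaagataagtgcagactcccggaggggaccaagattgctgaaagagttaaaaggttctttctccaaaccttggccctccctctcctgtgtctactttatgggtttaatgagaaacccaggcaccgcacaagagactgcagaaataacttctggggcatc
Emid1: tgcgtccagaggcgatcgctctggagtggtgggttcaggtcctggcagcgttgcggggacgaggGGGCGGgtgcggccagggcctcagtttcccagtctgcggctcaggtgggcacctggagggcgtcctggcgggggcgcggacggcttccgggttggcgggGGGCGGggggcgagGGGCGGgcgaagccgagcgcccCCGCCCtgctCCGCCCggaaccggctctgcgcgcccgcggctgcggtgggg

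The Postn window has TATAAA 26 bases before the start. The Thbs2 window has CCAAT on the plus strand at 144 bases and on the minus strand at 186 bases, and TATAAA on the minus strand at 126. The Emid1 window has 5 matches to GGGCGG, the nearest 41 bases before the start, and the Fmod window has none of these motifs. The motifs do not overlap one another in these windows. Among 32851 RefSeq windows of this length, 12.4% hold TATAAA, 33.8% CCAAT, 32.7% GGGCGG and 4.46% TGACTCA on either strand. The 39 matrix genes found in the table, 28 of them measured, have 47 windows, of which 8 hold TATAAA, 15 CCAAT, 23 GGGCGG and 2 TGACTCA. A match describes the letters and is not evidence of binding.

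In DU6 compared with DUKs, 5 of the 39 matrix genes were 2-fold or more higher (12.8%, against 4.31% of all measured genes) and 0 were 2-fold or more lower (5.36% of all). The 5 were Fmod, Emid1, Tnxb and, with DUKs under the floor, Nid2 and Thbs2. Thbs2 was measured only through DU6 and DU6i, so it could not have been counted as lower. The count was 2 of 31 genes with the floor doubled (3.06% of all). It was 2 of 39 with log2(intensity + floor) (1.43% of all) and 2 of 26 on chip A alone (3.74% of all). The median log2 ratio of the matrix genes was 0.27, with 27 above 0 and 12 below, and that of all measured genes was 0.12, with 59.6% above 0. In DU6i compared with DBA, 5 genes were 2-fold or more higher (12.8%, against 3.84% of all) and 2 lower (7.47% of all). The 5 were Nid2, Postn, Col5a1, Loxl1 and Col15a1, and the 2 were Emid1 and Fmod. The count higher was 8 of 52 over every measured probe set (4.48% of all) and 3 of 20 on chip B alone (4.96% of all). The median here was 0.36, with 31 genes above 0 and 7 below, where all measured genes had a median of -0.07 with 43.6% above 0. By chip, the median in DU6 vs DUKs was 0.29 over the 21 matrix genes of chip A, against 0.10 for all measured genes of that chip, and 0.13 over the 18 of chip B, against 0.17 for all. The matrix genes of chip B were thus not above the other genes in that pair, nor were the matrix genes of both chips when the floor was doubled (0.12 against 0.14). In DU6i vs DBA the medians were 0.51 against -0.07 on chip A and 0.20 against -0.07 on chip B.

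**Figure D2:**
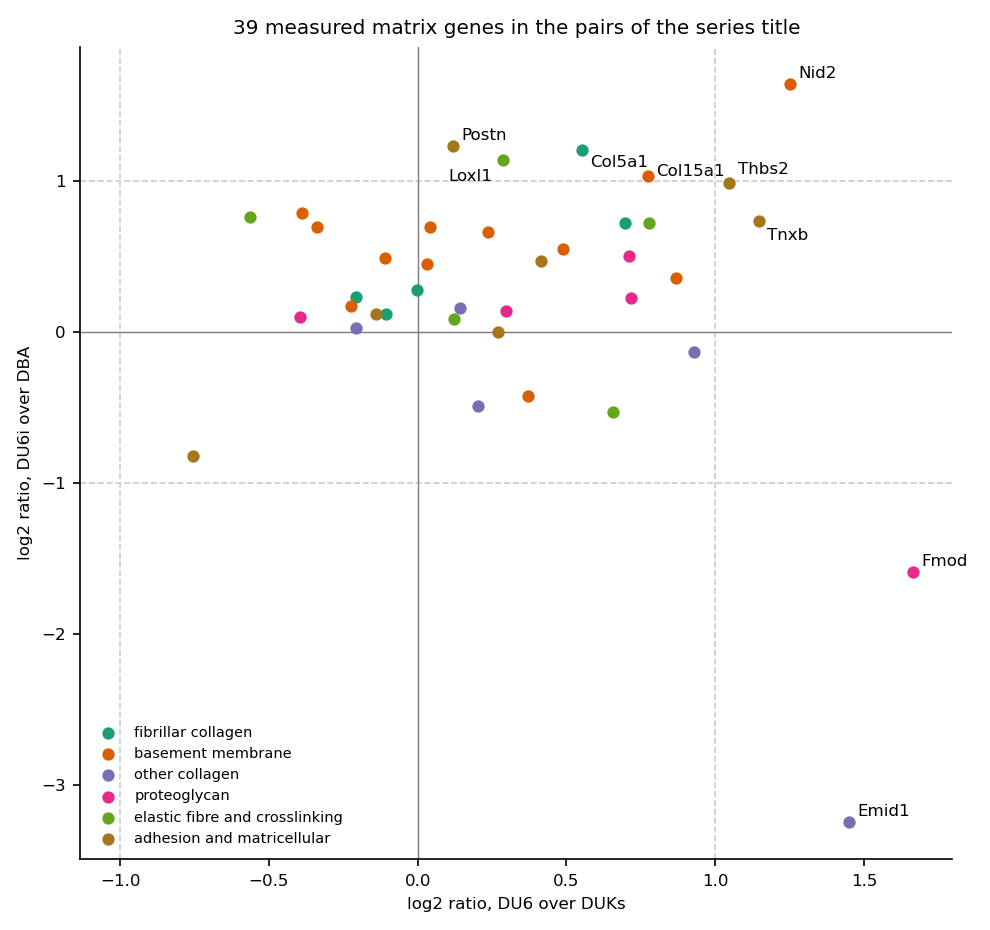
Log2 ratio of each measured matrix gene in DU6i vs DBA (vertical) against DU6 vs DUKs (horizontal), coloured by role, with dashed lines at 2-fold and 1 point per gene. Nid2 lies toward the upper right (at least 1.25 and 1.64), and Fmod (1.66 and -1.59) and Emid1 (1.45 and -3.24, a bound) lie at the lower right; the pairs share no array.

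The other 4 pairs reuse these arrays. DU6 against DBA had 3 matrix genes 2-fold or more higher (3.47% of all). They were Nid2, Tnxb and Thbs2, and the direction of Thbs2 again followed from the filter. Another 2 were lower (Emid1 and Vtn, 3.94% of all), and the median was 0.39 against 0.02 for all genes. That median was 0.09 on chip A and 0.63 on chip B, and 0.21 under quantile normalisation. DU6i against DUKs had 3 higher (Nid2, Col15a1 and Vtn; 2.97%) and 0 lower (7.03%), with a median of 0.59 against 0.00, and of 0.63 on chip A and 0.20 on chip B. Between the DU6 lines themselves, DU6 was 2-fold or more above DU6i in 2 genes (Emid1 and Fmod; 4.62%) and below it in 4 (Vtn, Eln, Hspg2 and Col4a2; 4.06%), with a median of -0.04 against 0.13, and of -0.13 on chip A and 0.26 on chip B. DUKs was above DBA in 1 gene (Col6a2; 5.48%) and below it in 3 (Emid1, Vtn and Fmod; 5.67%), with medians of -0.00 and -0.05.

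Most basement membrane genes were higher in DU6i than in the other lines. The middle share of the pyruvate carboxylase control was also higher in DU6i (54.5% on chip A) than in DU6 (15.3%) and DBA (19.5%). It was close to that of DUKs (53.9%), and its part in these differences was not tested. Of 12 measured genes, 11 were higher in DU6i than in DU6 (median log2 ratio of DU6 to DU6i -0.56), where the median of all measured genes was 0.13, that is, higher in DU6. Under quantile normalisation these were 9 of 12 and a median of -0.31. Of the 12, 11 were higher in DU6i than in DBA (median 0.61), where 43.6% of all measured genes were (median -0.07). In DU6 vs DUKs 8 were higher in DU6 (median 0.14), close to all measured genes (59.6%, median 0.12). Nid2, the gene of nidogen 2, which links the laminin and collagen IV networks, had 5378 in DU6 and 7932 in DU6i, against 2037 in DUKs, under the floor, and 2537 in DBA. The sides did not overlap, since DU6 was 2.12 times DBA, and the ratios were at least 2.38 for DU6 over DUKs and 3.13 for DU6i over DBA. Nid1, which encodes the related nidogen 1, had 16482 in DU6, 23125 in DU6i, 11752 in DUKs and 15793 in DBA. Its order of lines was the same as that of Nid2, with DU6 close above DBA and log2 ratios of 0.49 and 0.55 in the main pairs.

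Col15a1, whose product joins basement membranes to the fibrils beneath, had 17250 in DU6, 25525 in DU6i, 10081 in DUKs and 12484 in DBA. DU6 was 1.71 times DUKs and DU6i 2.04 times DBA. Its relative Col18a1, the precursor of endostatin, had 8263, 8854, 9640 and 7854 in the same order and spanned 1.23-fold, with DUKs highest. Col4a1 and Col4a2, which encode the collagen IV chains of every basement membrane, had 20083 and 18805 in DU6, 33213 and 37786 in DU6i, 25402 and 24626 in DUKs, and 20495 and 21903 in DBA. Both followed the order of the 99th percentile of the chip A arrays. Their log2 ratios in DU6 vs DUKs were -0.34 and -0.39 and turned to 0.23 and 0.18 under quantile normalisation, which gives each array the same range. In DU6i vs DBA they went from 0.70 and 0.79 to 0.17 and 0.20. The 2 genes are neighbours that point away from each other, with RefSeq starts 21 bases apart.

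The laminin genes spanned between at least 1.34-fold (Lamb3) and at least 1.97-fold (Lamb1) over the lines. Lamc1, the gamma chain shared by most laminins, had 12957 in DU6, 19734 in DU6i, 12576 in DUKs and 12179 in DBA, so that DU6i alone stood apart. Lama4, the alpha chain of adipocyte and vessel laminin, had 5870, 8638, 5747 and 6317, again with DU6i highest. Lama2 had 3648, 4391, 3100 and 2770. Both DU6 lines lay above the others for Lama2, with DU6 1.18 times DUKs and DU6i 1.59 times DBA. Lamb1 had 1869 in DU6, 2015 in DU6i and 1571 in DBA, and 1012 in DUKs, just under the floor. Lamb3, a chain of epithelial laminin, was above the floor in DU6 (1322) and DBA (1368) only. Hspg2, the gene of the heparan sulfate proteoglycan perlecan, had 9592 in DU6, 19485 in DU6i, 10355 in DUKs and 13859 in DBA on chip B. A second probe set on chip A had 5278, 8914, 7070 and 4093, so both put DU6i highest and they disagreed on whether DBA was above DUKs.

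Among the fibrillar collagens, the brightest probe sets of the collagen V genes separated the sides and those of collagens I and III did not, while other probe sets of Col5a1, Col1a2 and Col3a1 gave the opposite picture. Col5a1, whose chain starts and limits the width of collagen I fibrils, had 9618 in DU6 and 12239 in DU6i against 6561 in DUKs and 5304 in DBA. DU6 was 1.47 times DUKs and DU6i 2.31 times DBA. A second probe set gave 6983, 11468, 7108 and 4779, with a like log2 ratio in DU6i vs DBA (1.26) but with DU6 level with DUKs (-0.03). Col5a2, its partner chain, had 8922 in DU6, 10405 in DU6i, 5502 in DUKs and 6313 in DBA, and log2 ratios of 0.70 and 0.72 in the main pairs.

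Collagens I and III form the bulk of the interstitial fibrils. On chip B, Col1a1 had 51869 in DU6, 33648 in DU6i, 55867 in DUKs and 30943 in DBA. Col1a2 had 38065, 25314, 38083 and 20823, and Col3a1 had 59839, 45839, 69038 and 38904. In all 3, DU6 and DUKs stood above DU6i and DBA, as did the 99th percentile of the chip B arrays, while in the main pairs the log2 ratios lay between -0.21 and 0.28. Other probe sets of these genes gave other orders. For Col1a1 on chip A, one probe set had 20767 in DU6, 12200 in DU6i, 24344 in DUKs and 19312 in DBA, and another had 15709, 37695, 24637 and 20891, so the log2 ratio in DU6i vs DBA was -0.66 in one and 0.85 in the other. A Col1a2 probe set had 28073 in DU6, 28629 in DU6i, 16577 in DUKs and 26359 in DBA. The remaining Col1a2 probe set had 37124, 24503, 35461 and 21237, close to the first. A Col3a1 probe set on chip A had 7467, 7287, 6036 and 3841, with both DU6 lines highest. No single order of the 4 lines held over all the probe sets of Col1a1, Col1a2 or Col3a1.

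**Figure D3:**
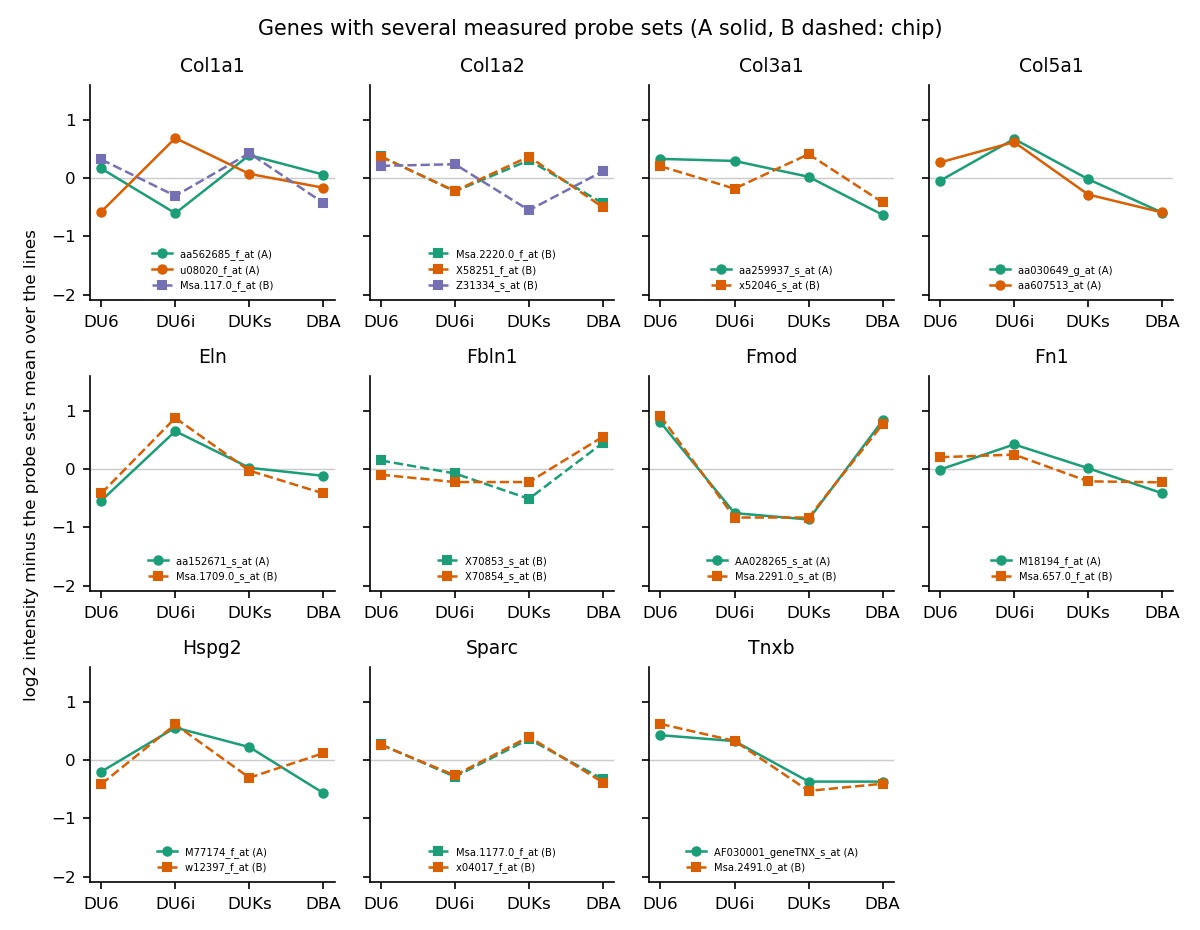
Log2 difference from the probe set's mean over the 4 lines for every measured probe set of the 11 matrix genes with more than 1, each drawn line being 1 probe set, solid for chip A and dashed for chip B. The lines of Fmod and Tnxb run together, whereas the Col1a1 probe sets cross, with log2 ratios in DU6i vs DBA that differ by 1.51.

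Of 11 matrix genes with several measured probe sets, all probe sets of a gene had the same sign in 7 genes for DU6 vs DUKs and in 10 for DU6i vs DBA. The spread between probe sets of a gene had a median of 0.44 and a largest value of 0.76 in the first pair, and 0.25 and 1.51 in the second. The SD of a single log2 ratio over all 316 genes with 2 measured probe sets was 0.44 and 0.34. It covers differences between probe sets, not between animals or pools.

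Among the brightest matrix probe sets, the order of lines mostly followed the range of the array. Of the 4 matrix probe sets with a mean above 20000 on chip A (Col1a1, Col4a1, Col4a2 and Eln), all 4 had the order of the 99th percentile, DU6i above DUKs above DBA above DU6. Their median range between highest and lowest line was 2.15-fold and became 1.24-fold under quantile normalisation. The match depends on the cutoff, since the chip A probe sets just under it had other orders. These were a Col1a1 probe set (mean 19156, DUKs highest), Bgn (18382, DUKs lowest) and an Fn1 probe set (18212, DBA lowest). On chip B, 9 of 12 probe sets above 20000 had DU6 and DUKs as the upper lines, as the 99th percentile had. The median range of the 12 went from 1.72-fold to 1.34-fold. The exceptions were Fn1, Fbln2 and 1 probe set of Col1a2. These bright genes are themselves among the values that set the 99th percentile, and the part of the array's range in their differences was not tested.

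**Figure D4:**
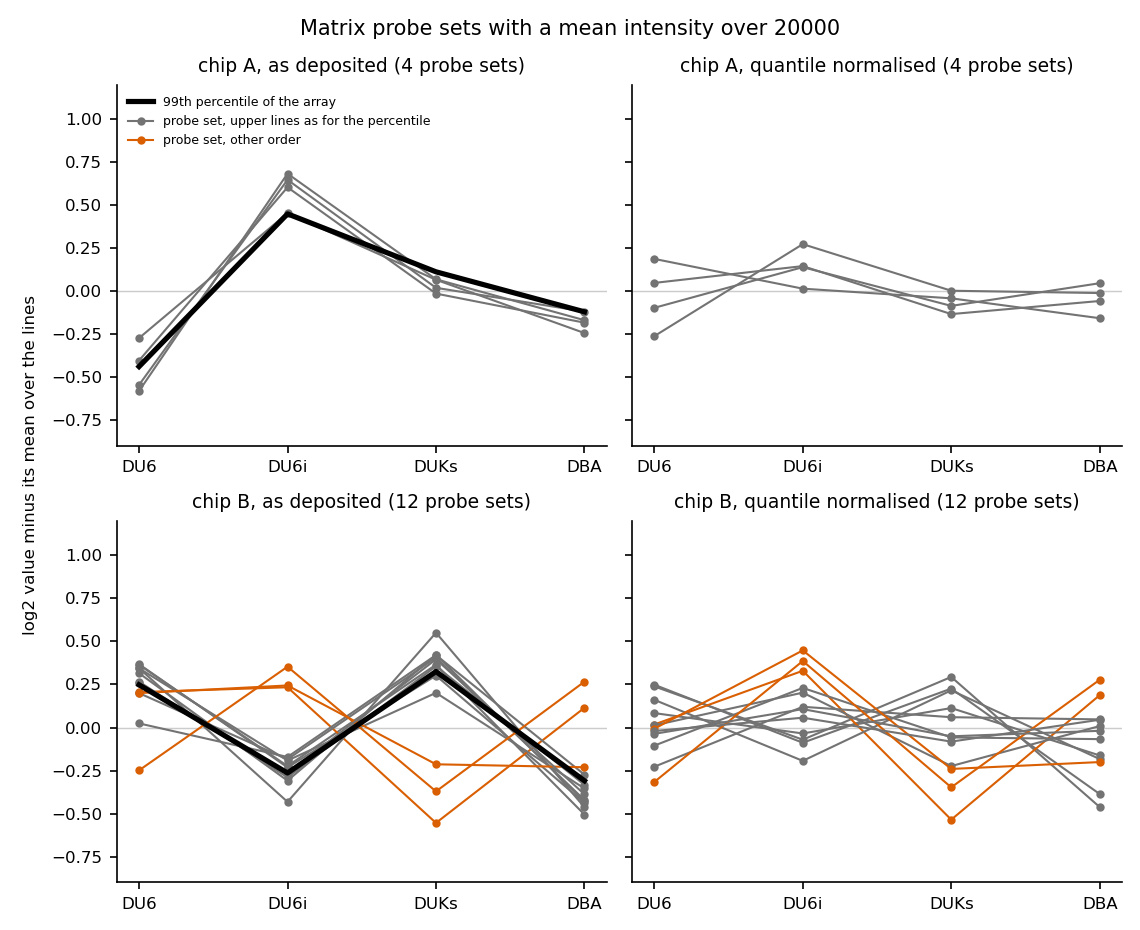
Log2 difference from the mean over the 4 lines for the matrix probe sets with a mean intensity above 20000 (thin lines, orange where the upper lines differ from those of the percentile), with the 99th percentile of each array (thick line), as deposited on the left and after quantile normalisation on the right. As deposited, the thin lines of chip A follow the thick one in all 4 cases, and after normalisation the median range falls to 1.24-fold on chip A and 1.34-fold on chip B.

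Of the 5 genes grouped as other collagens (Col6a1, Col6a2, Col7a1, Col9a2 and Emid1), only Emid1 reached 2-fold in a main pair. Collagen VI forms beaded filaments around adipocytes. Col6a1 had 65998 in DU6, 45511 in DU6i, 59777 in DUKs and 40667 in DBA, and Col6a2 had 53504, 31236, 61728 and 30560. In the main pairs their log2 ratios lay between -0.21 and 0.16. Col6a2 was 2.02 times as high in DUKs as in DBA, a difference that fell to under 2-fold after quantile normalisation. Col9a2, a chain of the cartilage collagen IX, had 4378 in DU6, 1614 in DU6i, under the floor, 2298 in DUKs and 2467 in DBA. Col7a1, the collagen of anchoring fibrils in skin, had 1303 in DU6, 319 in DU6i, under the floor, 1131 in DUKs and 1438 in DBA. For both, DU6i was the lowest line, and Col9a2 was 1.91 times as high in DU6 as in DUKs.

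Emid1, which encodes a secreted protein with an EMI domain and a collagen-like stretch, had the widest range of the measured matrix genes. It had 8485 in DU6, 1070 in DU6i, under the floor, 3108 in DUKs and 21396 in DBA. DU6 was 2.73 times DUKs, while DU6i was lower than DBA by at least 9.47-fold, so the pairs ran in opposite directions. Markers of the epididymis and male tract were also lowest in DU6i and highest in DBA. Their 8 measured genes (of 9 on the chips) summed to 118311 in DU6, 14533 in DU6i, 127581 in DUKs and 187427 in DBA, and 7 of the 8 were 2-fold or more lower in DU6i than in DBA. Markers of mesothelium, the layer that covers the fat pad, summed over 7 of 7 genes to 34919, 22399, 27482 and 48884, in the same order of the 4 lines as Emid1. Emid1 was also higher in DU6 and DBA, the lines with a low middle share of the pyruvate carboxylase control, than in DU6i and DUKs. The part of either tissue, or of the difference in the control, in the Emid1 values was not tested.

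Among the proteoglycans, only fibromodulin had DU6 and DBA above DU6i and DUKs. Elsewhere among the measured matrix genes, Col7a1, Col9a2, Emid1, Fbln1 and Lamb3 had that split as well. Fmod, which binds collagen I and guides how fibrils join, had 10972 in DU6 and 11228 in DBA against 3736 in DU6i and 3464 in DUKs. The probe set on chip B gave 7529 and 6836 against 1693 and 2223, with the latter values under the floor. DU6 was 3.17 times DUKs and DU6i was lower than DBA by 3.01-fold on chip A, and at least 3.33-fold and 3.03-fold on chip B. This split of the lines was also that of the pyruvate carboxylase control, in which the middle probe set had 15.3% and 19.5% of the 3' signal on chip A in DU6 and DBA and 54.5% and 53.9% in DU6i and DUKs. The mesothelial marker sum given above was also highest in DBA and DU6. The part of either in the Fmod values was not tested.

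The other small leucine-rich proteoglycans differed by less. Lum, the gene of lumican, had 6998 in DU6 and 6951 in DU6i against 4274 in DUKs and 4893 in DBA, which put DU6 at 1.64 times DUKs and DU6i at 1.42 times DBA. Bgn, the gene of biglycan, had 18873, 20613, 15379 and 18663, with DU6 and DBA level. Dcn, the gene of decorin, had 42655 in DU6, 37262 in DU6i, 56163 in DUKs and 34697 in DBA, with DUKs highest. Vcan, the gene of the large proteoglycan versican, had 1680, 1659 and 1420 in DU6, DU6i and DBA, and 405 in DUKs, under the floor.

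Elastic fibre genes split by function, with the crosslinking enzymes higher in the DU6 lines. Lox, the lysyl oxidase that crosslinks collagen and elastin, had 7237 in DU6 and 6988 in DU6i against 4226 in DUKs and 4233 in DBA. The lines of a side lay close together and the sides did not overlap, with ratios of 1.71 and 1.65. Loxl1, the related enzyme that acts on elastin, had 10977 in DU6, 14079 in DU6i, 9007 in DUKs and 6387 in DBA, or 1.22-fold and 2.20-fold in the main pairs. Eln itself had 18848 in DU6, 43061 in DU6i, 27871 in DUKs and 25325 in DBA on chip A. A dimmer probe set on chip B had 2063 in DU6 and 1532 in DBA, under the floor, and 5538 in DU6i and 2961 in DUKs. Both put DU6i highest. On chip A the log2 ratio in DU6i vs DBA was 0.77 and became 0.09 under quantile normalisation, and on chip B it was at least 1.29 and became 1.26. Fbln1 and Fbln2, the genes of fibulins in elastic fibres and basement membranes, had 5787 and 16456 in DU6, 4959 and 24985 in DU6i, 3670 and 15119 in DUKs, and 7145 and 23521 in DBA. A second Fbln1 probe set had 2464, 2205, 2061 and 3872, also with DBA highest.

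The adhesive and matricellular genes included several of the widest differences between the sides. Tnxb, the gene of tenascin-X, which binds collagen fibrils together, had 18542 in DU6 and 15166 in DU6i against 8379 in DUKs and 9117 in DBA on chip B. On chip A it had 7915 and 7377 against 4562 and 4559. Both probe sets kept the sides apart, with ratios between 1.62 and 2.21 in the main pairs. Thbs2, the gene of thrombospondin 2, a matricellular protein that limits vessel growth, had 2114 in DU6 and 2033 in DU6i. Its intensities in DUKs (575) and DBA (868) were under the floor, so that the ratios were at least 2.07 and at least 1.99.

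Postn, the gene of periostin, which binds collagen I and fibronectin, had 17660 in DU6, 26723 in DU6i, 16281 in DUKs and 11365 in DBA. DU6 and DUKs were nearly level (1.08-fold) and DU6i was 2.35 times DBA. Fn1, the gene of fibronectin, had 31925 in DU6 and 32921 in DU6i against 23966 in DUKs and 23683 in DBA on chip B. On chip A it had 17694, 23839, 17966 and 13349, where DU6 was level with DUKs. Sparc, the gene of osteonectin, had 61873 in DU6, 43090 in DU6i, 68161 in DUKs and 39566 in DBA, and a second probe set had 61043, 41525, 64968 and 40287. Its ratios in the main pairs were at most 1.10. Thbs3 was above the floor in DU6 (1342) and DUKs (1113) only. Vtn, the gene of the plasma and matrix protein vitronectin, had 3461 in DU6i, 1727 in DUKs and 6108 in DBA, and 965 in DU6, under the floor. It was lower in the DU6 line of both main pairs, by at least 1.69-fold and by 1.76-fold.

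Genes that act on or with the matrix showed no single direction. The enzymes and chaperones that make collagen (8 measured of 10 on the chips) had a median of 0.43 in DU6 vs DUKs, with 7 of 8 above 0. In DU6i vs DBA the median was -0.26, with 3 of 8 above 0, and 0 of 8 reached 2-fold in either pair. Of all measured genes, 59.6% were above 0 in DU6 vs DUKs (median 0.12) and 43.6% in DU6i vs DBA (median -0.07). Serpinh1, the collagen chaperone, had 24285 in DU6, 26340 in DU6i, 19106 in DUKs and 16603 in DBA. P4hb, a subunit of the prolyl hydroxylase, had 14030 in DU6, 11923 in DU6i, 8866 in DUKs and 19738 in DBA, and Pcolce, an enhancer of procollagen cleavage, had 16381, 13415, 11548 and 19767. Serpinh1 had both DU6 lines highest and the others had DBA highest. Matrix receptors (10 of 18) had medians of 0.48 and 0.10. The collagen receptor Ddr1 was 2.25 times as high in DU6 as in DUKs and the integrin gene Itgb5 2.69 times, and Itga6, a laminin receptor, was at least 2.45 times as high in DU6i as in DBA. Genes of the TGF-beta pathway (7 of 13), which drives matrix synthesis, were all above 0 in DU6 vs DUKs (median 0.66, with Tgfbi at 2.06-fold). In DU6i vs DBA 3 of 7 were above 0 (median -0.02), close to the share of all measured genes in that pair. Other matrix genes that the symbol rule leaves out (10 of 18) had medians of -0.13 and 0.25. Matn2 was 2.43 times as high in DU6 as in DUKs, and Ogn, a proteoglycan gene, 2.74 times as high in DU6i as in DBA.

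**Figure D5:**
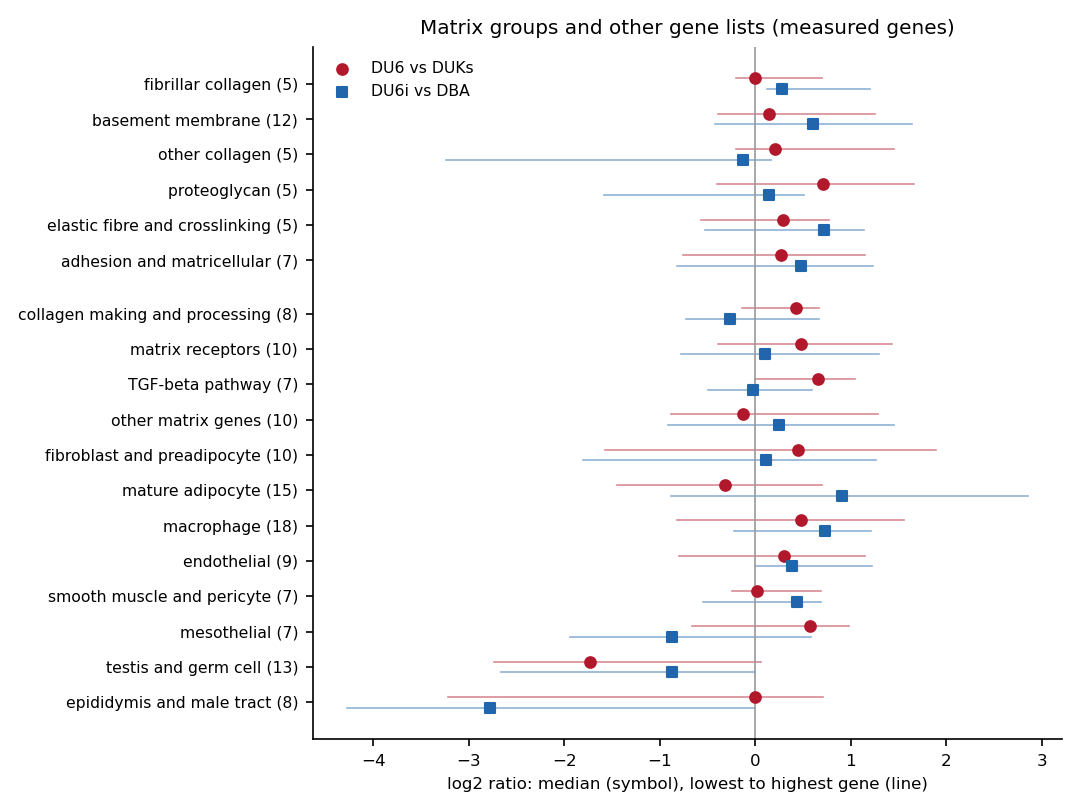
Log2 ratio in DU6 vs DUKs (circles) and DU6i vs DBA (squares) for the matrix genes by role and for the other gene lists, with the number of measured genes after each name. Symbols are medians and thin lines run from the lowest to the highest gene; the circle lies farthest left for testis markers (-1.73) and the square for markers of the epididymis (-2.77).

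Markers of the cell types in the fat pad were read from the same arrays. Adipocyte markers were present, with 15 of 16 genes on the chips measured, and summed to 317774 in DU6, 434961 in DU6i, 416517 in DUKs and 270594 in DBA. Fibroblast and preadipocyte markers (10 of 13) summed to 69477, 62114, 46582 and 58882, with DU6 and DU6i above the others in the sum and in 4 of the 10 genes. Against DBA, both DU6 and DU6i had 5 of these genes higher and 5 lower. The median log2 ratios were -0.24 in DU6 vs DBA and 0.11 in DU6i vs DBA. Macrophage markers (18 of 20) summed to 238662, 238629, 196477 and 149987. Of the 18 genes, 10 had both DU6 lines above both others, an order found in 18.4% of all measured genes. For endothelial markers (9 of 12) the sums were 84438, 75021, 57007 and 61912, and 7 of the 9 genes had that order. Smooth muscle and pericyte markers (7 of 7) summed to 98778, 91069, 85735 and 82118, with 1 gene in that order. Against DBA, DU6 had 5 of the 7 genes lower (median log2 ratio -0.60) and DU6i had 6 higher (median 0.44). Against DUKs the medians were 0.02 for DU6 and 0.77 for DU6i, so the higher sum of DU6 was not shared by most of these genes. Testis and germ cell markers (13 of 16) summed to 61424 in DU6, 45617 in DU6i, 234367 in DUKs and 108055 in DBA, and 12 of the 13 were 2-fold or more lower in DU6 than in DUKs. The fibroblast, macrophage, endothelial and smooth muscle sums were thus higher, and the testis sum lower, in DU6 and DU6i. These lines stood above both others in 17 of the 39 matrix genes. DUKs was the highest line for 7 of the 39, among them the bright genes Col1a1, Col3a1 and Sparc. The part of these cell types in the matrix differences was not tested. The pyruvate carboxylase control had a low share in 1 line and a high share in 1 line of each side, and it differed within both main pairs. On chip A the share was 15.3% in DU6 and 53.9% in DUKs, and 54.5% in DU6i and 19.5% in DBA. Its part in the matrix differences was not tested either.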

How the data were processed

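Per the labels, cRNA was made from pooled RNA and hybridised to 1 chip A and 1 chip B array per line. The deposited values are linear intensity values per probe set, for which the labels name Data Mining Tool 1.2 and Microarray Suite 4.0.1, scaled by the authors to one level per array; the genome build is not given in the sources used here. Of 13179 probe sets, 110 controls were left out. Genes were named through the platform annotation, and all 80 matrix probe sets matched RefSeq by gene ID with 0 symbols changed. Another 3 probe sets with several symbols (of Loxl2 and Thbs3) were left out of the members.

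Lower intensities were raised to the floor, and log2 taken after that. The gene value was that of the probe set with the highest mean intensity. Ratios of 2-fold or more are a rule of size. The sides were tested with limma 3.58.1 in R 4.3.3 (lmFit and eBayes, chips fitted separately, Benjamini-Hochberg over both), checked on simulated data. Tables and figures used Python 3.11.15 with numpy 2.4.6, pandas 2.3.3 and matplotlib 3.10.9. The members and gene lists were chosen with earlier results of these data known.

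Genes named with all 4 intensities are Postn, Fmod, Nid2 and Col5a1, those that reached 2-fold between DU6 and DUKs or between DU6i and DBA, the 10 whose sides lay farthest apart by their closest lines, the 3 brightest of each chip and those with several measured probe sets; the others are named by role.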

Additional observations from a re-analysis of the deposited data

Results flagged for a closer look

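Emid1 and Fmod each differed by 2-fold or more in opposite directions in DU6 vs DUKs and DU6i vs DBA. The log2 ratio in DU6 vs DUKs minus that in DU6i vs DBA was 4.69 for Emid1, where DU6i was under the floor, and 3.25 for Fmod. With 1 pool per line the difference between the pairs was not tested.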

How the results depend on the processing

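The results were recomputed under quantile normalisation, a floor at 0.5 or 2 times its height, log2(intensity + floor), other filters, every measured probe set, each chip alone and without probe sets above 20000; the last was chosen after seeing the data. Of 123 such values for the counts and medians, 112 stayed within the spread set for them and 11 moved. That spread came from the ranked ratios of the matrix genes for a median and was a fixed factor for a count by size or order. It thus covers no difference between pools. The 112 include the limma counts of 0 and the DU6 vs DU6i median, which was -0.20 on chip A alone (26 genes) and 0.26 on chip B alone (20 genes). In DU6 vs DUKs the count of matrix genes 2-fold or more higher was 2 of 31 with the floor doubled (3.06% of all). It was 2 of 39 with log2(intensity + floor) (1.43% of all) and 2 of 26 on chip A alone (3.74% of all). The count lower was 1 of 45 with the floor halved (6.73% of all). In DU6i vs DBA the count higher was 8 of 52 over every measured probe set (4.48% of all) and 3 of 20 on chip B alone (4.96% of all). The count lower was 1 of 26 on chip A alone (7.22% of all). Without a filter, over all 60 genes, the medians were 0.00 in DU6 vs DUKs, 0.10 in DU6i vs DBA and 0.00 in DU6 vs DBA, because unmeasured genes sit at the floor in both lines. The count with DU6 and DU6i above both other lines was 6 of 20 genes on chip B alone (30%, against 16.0% of all). Under quantile normalisation it was 20 of 38 (52.6%, against 20.4% of all). With limma, 0 matrix probe sets were called under each alternative, with between 2 and 9 at an unadjusted p under 0.05, also when each line was left out in turn (0 in all 4 fits); without a filter it called 4 of 13069 probe sets and 0 of the matrix. For single named genes 17 values moved and 167 did not. The ones that moved were those of Col4a1, Col4a2 and Eln under quantile normalisation, and of Emid1, Thbs2 and Nid2 with the floor, since their low values lie near or under it. In DU6 vs DUKs quantile normalisation turned the sign of Col4a1 (-0.34 to 0.23), Col4a2 (-0.39 to 0.18) and Sparc (-0.14 to 0.01), none of which was at 2-fold. With the floor doubled Thbs2 fell to 0.05 and 0.00 in the main pairs and Nid2 to 0.25 and 0.81. No paired analysis was possible because each line has 1 pool and no replicate numbers to pair. Signal over background limits the 10 measured genes that were under the floor in a line, and the single pool per line limits every comparison.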
